A study of Mus musculus with 9 samples.

Results

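The genes described here are 9 transcription regulators of haematopoietic stem cells outside the Hox clusters: Mllt3, Hlf, Mecom, Prdm16, Meis1, Gfi1, Myc, Mycn and Myb. They were taken by name, and the rule used no measured values, but the regulators were chosen with earlier results of these data known. Of the 9 genes 8 had a probe set annotated to them, 14 probe sets in all among 22626. Prdm16 had none under its symbol, synonyms or gene identifier in the probe table and was not analysed here. The samples were KSL cells, sorted from mouse bone marrow as c-Kit+, Sca-1+, Lin- and IL7Ra-, and their RNA was measured on 9 Affymetrix arrays, 1 per biological replicate and 3 per group. RUNX1(41-214) cells carried a retroviral vector that expresses residues 41 to 214 of RUNX1, a stretch around the Runt domain, which binds DNA. They were taken 4 months after transduction and transplantation. Runx1KO cells came from mice with both Runx1 alleles floxed and an Mx-Cre transgene, whose promoter is switched on by poly IC in blood cells and other tissues. Control cells came from mice with the same floxed alleles and no Mx-Cre, and both of these groups were sampled 3 months after poly IC. All mice were on a C57BL/6 background. The labels give the RUNX1(41-214) cells no poly IC, floxed allele or empty-vector counterpart. Sources of a difference from the other groups therefore cannot be told apart. They include the fragment, the vector, the transplantation, the floxed alleles, poly IC and the sampling time.

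Self-renewal of a haematopoietic stem cell means that at least some daughter cells keep the stem cell state, and it rests on regulators that hold stem cell genes open and cells quiescent. Hlf, Mecom, Prdm16 and Meis1 are DNA-binding factors that are highest in the most primitive cells and fall as cells commit. Mllt3, also called AF9, binds acylated histones and recruits the DOT1L methyltransferase and elongation factors to active genes, and in human stem cells it is limiting for their maintenance. Gfi1 is a repressor that restrains stem cell cycling. Myc, Mycn and Myb drive growth and division, and in mice the balance of Myc activity sets whether stem cells stay in the niche or differentiate.

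Array medians of the deposited signals ran from 124.9 to 147.1, and correlations between arrays over all genes were 0.976 to 0.992 within groups and 0.968 to 0.986 between groups. Of 10 genes listed for the sorted cell type 8 were measured, and they did not all move in 1 direction. Against control 6 of the 8 lay higher in RUNX1(41-214) and 7 in Runx1KO. Flt3 lay lower in both, by 0.60 and 0.41 on the log2 scale, and was not called. Among the 8, Kit is the gene of a gate antigen, while Ly6a, the gene of Sca-1, was not measured. Il7r, the gene of IL7Ra, is on the early lymphoid list. It was at 24.6 to 43.8 in RUNX1(41-214), 380 to 1179 in Runx1KO and 280 to 1400 in control cells. Kit was at 2914 to 3783 in RUNX1(41-214), 2795 to 3491 in Runx1KO and 1981 to 2567 in control cells, and the summed signals of the 8 were 15864 to 19222, 16079 to 18441 and 12282 to 14603. In RUNX1(41-214) against control Cd48, Tek and Kit were called higher and Procr lower (limma adjusted p = 0.00058, 0.0015, 0.0415 and 0.0099), and in Runx1KO against control Cd48 and Tek were called higher (adjusted p = 0.0252 and 0.0454).

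Markers of other cell types also differed between the groups. Summed signals of 9 megakaryocyte markers were 11987 to 14687 in RUNX1(41-214), 7207 to 8735 in Runx1KO and 3884 to 5271 in control cells, with 4 of 9 called higher in RUNX1(41-214) and 3 of 9 in Runx1KO against control. Of the 9 megakaryocyte markers 8 lay above control in RUNX1(41-214) and 6 in Runx1KO. Summed signals of 6 early lymphoid markers were 1741 to 2470, 4820 to 9515 and 6520 to 11384 in the same order of groups. In RUNX1(41-214) 4 of these 6 were called lower and 0 lay above control. In Runx1KO 1 was called lower and 3 lay above control. The 7 B cell markers summed to 1409 to 1729 in RUNX1(41-214), 4361 to 8935 in Runx1KO and 5816 to 6356 in control cells, with 2 and 0 of 7 called lower. The lower sum was carried by the immunoglobulin gene Ighm, with median signals of 674 in RUNX1(41-214), 6803 in Runx1KO and 5124 in control cells. They did not move as a set: 3 of the 7 lay above control in RUNX1(41-214) and 4 in Runx1KO. For 8 T and NK cell markers the sums were 307 to 518, 609 to 1278 and 1337 to 1665, with 4 and 1 of 8 called lower. Within that list Cd3e, a defining T cell gene, lay between 3.16 and 24.6 on all arrays, while the cytotoxic granule gene Nkg7 was at 120 to 250 in RUNX1(41-214), 369 to 931 in Runx1KO and 942 to 1243 in control cells. Mast cell and basophil markers did not move as a set: 4 of 8 lay above control in RUNX1(41-214) and 3 of 8 in Runx1KO (median log2 differences 0.06 and -0.07), with 3 and 1 of 8 called higher. Their sums of 5079 to 6071 in RUNX1(41-214), 2605 to 4005 in Runx1KO and 483 to 1333 in control cells were carried by the mast cell protease Cpa3, with median signals of 5061 in RUNX1(41-214), 2947 in Runx1KO and 272 in control cells. Of 8 monocyte and dendritic cell markers 3 were called lower in RUNX1(41-214) and 0 in Runx1KO against control, with 3 and 5 above control. Erythroid markers had 2 of 6 called higher in RUNX1(41-214) and 0 in Runx1KO, with 3 and 2 above control. The 9 granulocyte and 8 stromal and endothelial markers held 0 calls against control. Over all genes 4.28% were called in RUNX1(41-214) and 0.347% in Runx1KO against control. The part of these markers in the results below was not tested, and in bulk RNA fewer cells of a type and less RNA per cell cannot be told apart. The ratio of 3′ to 5′ Gapdh control signals, a measure of RNA integrity, was highest in Runx1KO replicate 3 (2.13 on the log2 scale) and control replicate 2 (1.85), against 0.98 to 1.29 on the other arrays. All 5 Runx1 probe sets averaged higher in cells labelled Runx1KO than in control cells, by 0.15 to 1.58 on the log2 scale, and for 3 of them the arrays did not overlap. The brightest was at 11.45 ± 0.27 in Runx1KO against 10.40 ± 0.45 in controls (log2, SD, n = 3 each), and none of the 5 passed in limma (lowest adjusted p = 0.112 over all probe sets). The position of the probe sets relative to the deleted part is unknown here, so that they do not check the deletion, and no loss of Runx1 signal was seen under the label Runx1KO.

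The 3 groups were compared to find which regulators differ in Runx1KO cells and which in cells with the Runt domain fragment. Mllt3 was higher in Runx1KO cells than in either other group, and Myc was higher in RUNX1(41-214) than in control cells. Hlf, Meis1, Mecom, Gfi1 and Myb passed the threshold in no comparison, on any of their probe sets. Mycn was split by probe set: its brightest one passed in no comparison, and another was bright on all 3 RUNX1(41-214) arrays and near the floor on the other 6. Levels below are deposited signals on a linear scale, and fold changes are differences of quantile-normalized log2(signal + 16), an offset that pulls changes of dim probe sets toward 0. Each gene is given by its brightest probe set unless another is named, and a call is an adjusted p under 0.05 in limma with Benjamini-Hochberg adjustment over all 12393 genes.

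In Runx1KO against control cells 1 of 8 regulators passed, upward, where 0.347% of all genes passed (0.234% upward and 0.113% downward). In RUNX1(41-214) against control cells 1 of 8 passed, upward, where 4.28% of all genes passed (1.73% upward and 2.56% downward). Between RUNX1(41-214) and Runx1KO cells 1 of 8 passed, downward, where 1.36% of all genes passed (0.299% upward and 1.06% downward). Arrays of the groups did not overlap for 2, 1 and 3 of the 8 in these comparisons, beside 10.5%, 20.3% and 18.8% of all genes. An unadjusted p under 0.05 was reached by 3, 1 and 2, beside 7.22%, 15.5% and 10.6%. Taken singly, 0, 2 and 1 of the 14 probe sets passed over all 22626, beside 0.137%, 3.05% and 1.08% of them. The median log2 fold change of the 8 was 0.23 in Runx1KO against control, beside -0.004 over all genes, with 7 of 8 above control. It was 0.07, beside 0.02 over all genes, in RUNX1(41-214) against control, and -0.10, beside 0.02, in RUNX1(41-214) against Runx1KO. Both comparisons with control share the same 3 arrays. Of all genes called in RUNX1(41-214) against control 214 were higher and 317 lower, a split of 304 and 280 when arrays were centred on their medians instead.

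**Figure D1:**
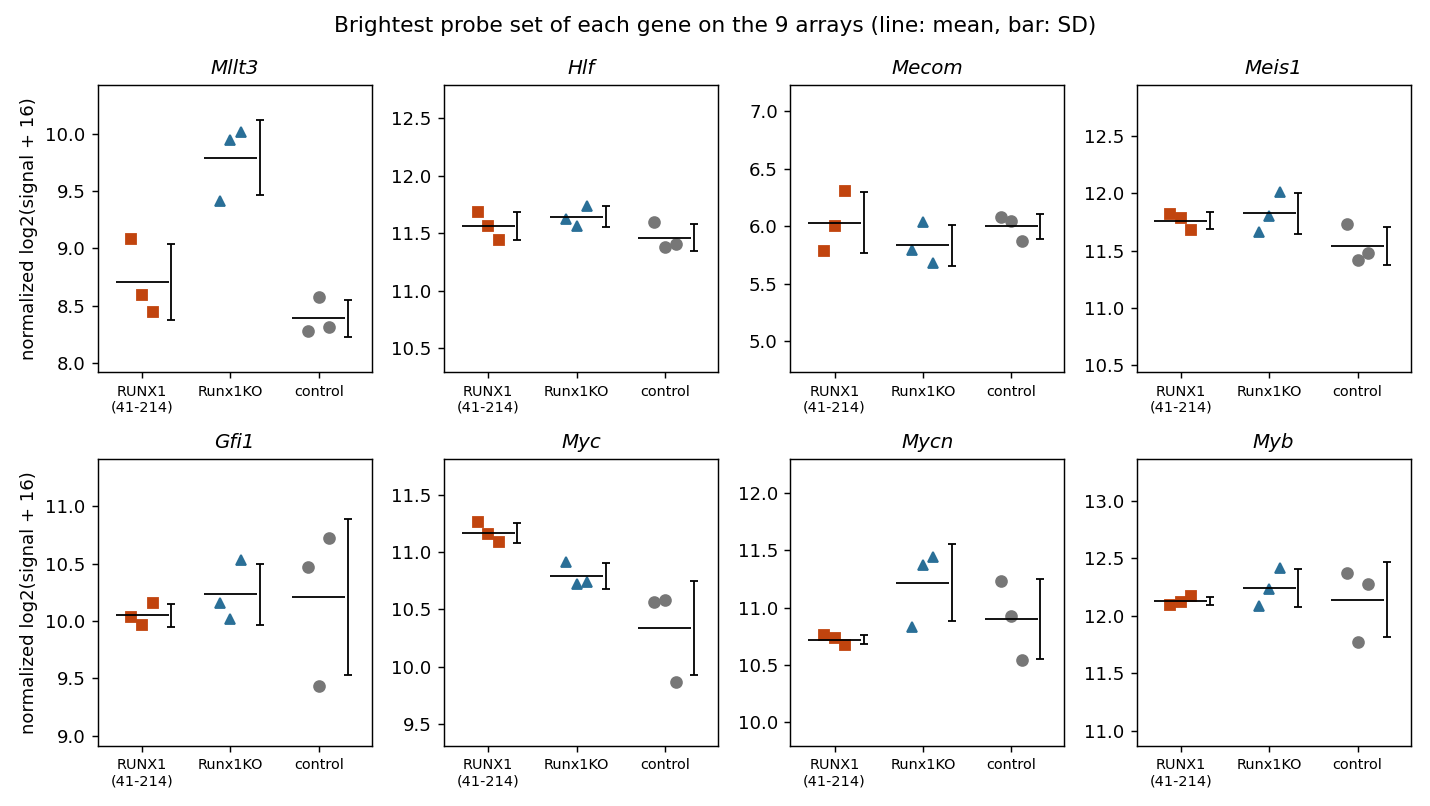
Normalized log2(signal + 16) of the brightest probe set of each of the 8 measured genes, 1 point per array, with the group mean (line) and SD (bar); every panel spans the same number of log2 units around its own level. The Mllt3 points of Runx1KO lie above all others, and the Myc points of the 3 groups do not overlap.

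Mllt3 had signals of 687, 1013 and 955 in Runx1KO cells, against 298, 375 and 309 in control cells. All 3 Runx1KO arrays lay above all 3 control arrays. Its normalized level was 9.79 ± 0.33 in Runx1KO and 8.39 ± 0.16 in control cells (log2, SD, n = 3 each). The difference, 1.40 ± 0.23 on the log2 scale (SE, limma adjusted p = 0.0318), is 2.64-fold. RUNX1(41-214) cells had signals of 517, 348 and 331, which overlap those of control cells. The difference from control was 0.32 on the log2 scale (95% interval -0.19 to 0.82, limma adjusted p = 0.591). Set directly against Runx1KO, RUNX1(41-214) cells were lower, with a log2 fold change of -1.08 ± 0.23 (limma adjusted p = 0.0454) and no overlap between arrays. Mllt3 was the 1 regulator of the 8 to differ among the 3 groups in a moderated F test (limma adjusted p = 0.0114, where 3.4% of all genes passed).

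Both Mllt3 calls lay close to the threshold. With array weights, with only the 6 arrays compared and with the replicate number as a block, the Runx1KO difference from control had adjusted p = 0.0701, 0.100 and 0.0577. Without both arrays of high Gapdh ratio it was 1.39 on the log2 scale (adjusted p = 0.0937), and adjusted over all 22626 probe sets the reported value had adjusted p = 0.0567. Leaving out control replicate 1 or 3, Runx1KO replicate 2 or 3, or RUNX1(41-214) replicate 2 also ended the call (adjusted p = 0.0900, 0.103, 0.152, 0.137 and 0.0647), while the log2 fold change stayed between 1.29 and 1.59. The difference between RUNX1(41-214) and Runx1KO lost its call in 13 of 20 alternative settings, with a log2 fold change of -1.27 to -0.86 throughout. The plot of calls by setting gives the log2 fold change under each setting and whether it passed, without the adjusted p. The adjustment over all probe sets is not among its rows.

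**Figure D2:**
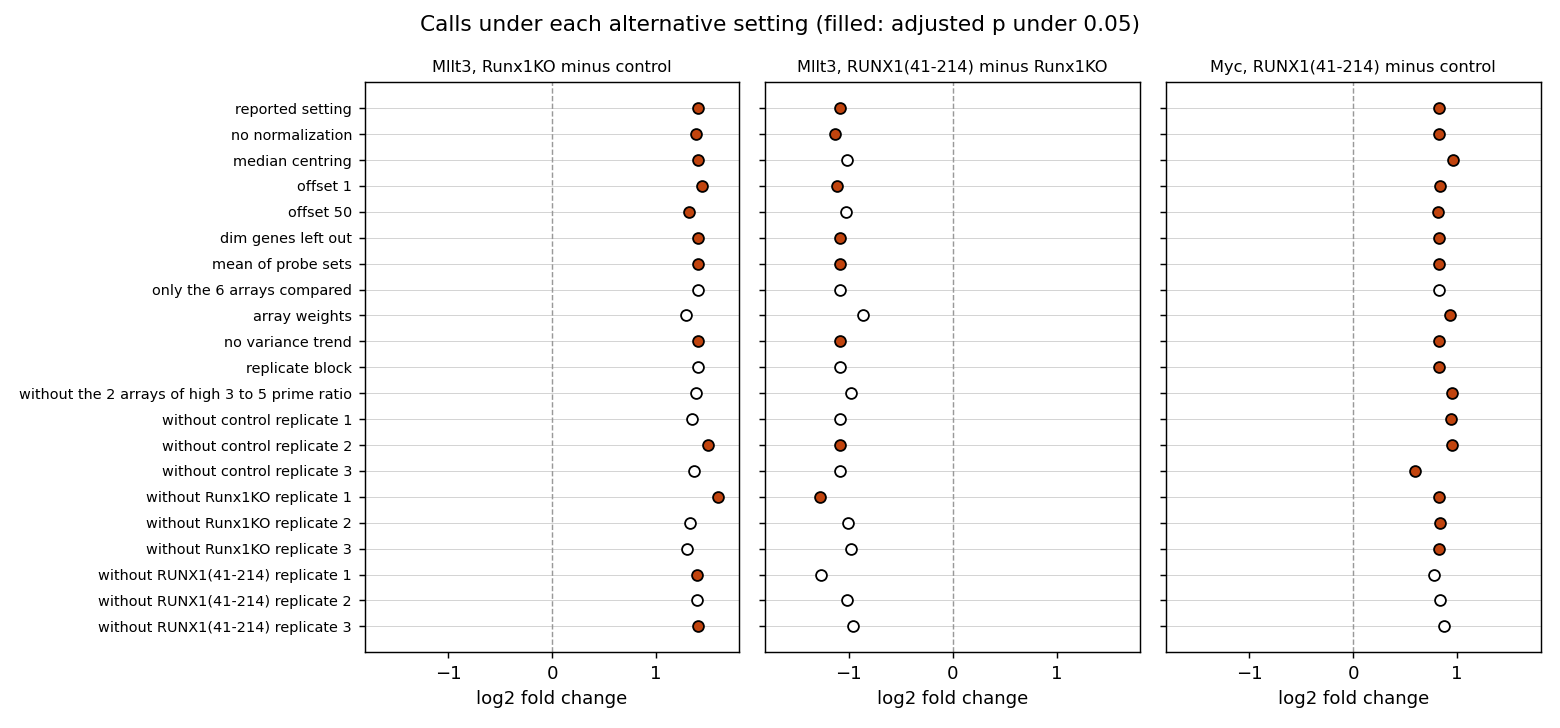
log2 fold changes of Mllt3 and Myc (horizontal axis) under the reported setting and each alternative (rows); filled points have an adjusted p under 0.05. No point changes sign, and leaving out single arrays ends calls in all 3 panels.

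The Mllt3 gene lies on chromosome 4 (chr4:87769925-88033407, GRCm38.p6). The promoter window of its upstream start is printed here because Mllt3 was the regulator called in Runx1KO cells. TGTGGT was the only form of the core RUNX motif searched. The Meis1 window stands beside that of Mllt3 because it was the 1 of 11 promoter windows of these genes to hold TGTGGT. Both come from RefSeq for GRCm38.p6, minus strand, from 250 bases before to 50 after the annotated start, 5′ to 3′, with the motif TGTGGT (searched on both strands as TGTGGT or ACCACA) in capitals.
Mllt3, chr4:88033358-88033657: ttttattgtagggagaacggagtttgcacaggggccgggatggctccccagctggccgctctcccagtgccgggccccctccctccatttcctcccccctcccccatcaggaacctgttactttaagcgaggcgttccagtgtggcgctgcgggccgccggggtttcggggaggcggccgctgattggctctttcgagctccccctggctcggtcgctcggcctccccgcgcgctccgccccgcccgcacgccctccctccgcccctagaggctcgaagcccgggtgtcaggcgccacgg
Meis1, chr11:19018920-19019219: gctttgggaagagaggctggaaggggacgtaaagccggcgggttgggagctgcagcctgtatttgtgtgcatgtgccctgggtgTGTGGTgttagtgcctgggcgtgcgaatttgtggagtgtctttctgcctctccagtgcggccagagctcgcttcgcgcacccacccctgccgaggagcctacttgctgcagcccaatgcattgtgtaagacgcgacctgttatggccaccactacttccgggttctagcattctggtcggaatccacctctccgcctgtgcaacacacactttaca
The printed Mllt3 window had a GC content of 70.3% and the Meis1 window 58.3%. A window at another annotated Mllt3 start (chr4:87806274-87806573, GC content 44.7%) also lacked the motif and is not printed. Of the 9 genes 8 had windows, and Myc had none in the table. The motif stood in 16.8% of 32851 windows of this length over all genes, so that 1 of 11 is a description of these letters and says nothing of binding.

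Myc, the growth-promoting partner of Max, had signals of 2487, 2266 and 2131 in RUNX1(41-214) cells, 1989, 1721 and 1594 in Runx1KO cells and 1519, 1533 and 915 in control cells. No array of one group overlapped another group, with RUNX1(41-214) highest and control lowest. RUNX1(41-214) cells were at 11.17 ± 0.09 and control cells at 10.34 ± 0.41 (log2, SD, n = 3 each). The difference of 0.83 ± 0.18 (SE, limma adjusted p = 0.0249) is 1.78-fold. Runx1KO cells were at 0.45 ± 0.18 above control, with an unadjusted p of 0.0298 in limma and an adjusted p of 0.585. The interval of the difference between RUNX1(41-214) and Runx1KO ran from -0.03 to 0.78 (limma adjusted p = 0.524).

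The low control array of Myc was replicate 3. Without it the difference between RUNX1(41-214) and control was 0.60 on the log2 scale (limma adjusted p = 0.0414). The call was lost without RUNX1(41-214) replicate 1, 2 or 3 (adjusted p = 0.122, 0.0954 and 0.0593) and when only the 6 arrays compared were fitted (adjusted p = 0.0607). It held in the other 16 of 20 alternatives, with log2 fold changes of 0.60 to 0.95.

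**Figure D3:**
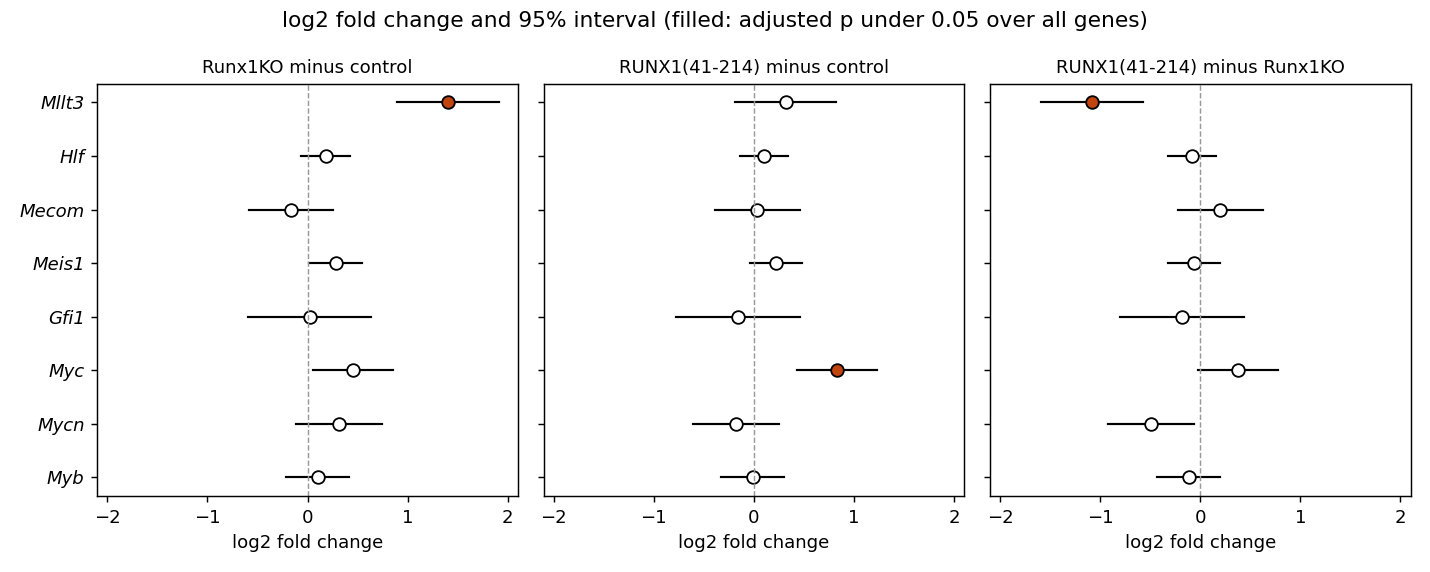
log2 fold change (point) and 95% interval (line) of the brightest probe set of each gene in the 3 comparisons; filled points have an adjusted p under 0.05 over all genes. Mllt3 and Myc are the genes with filled points, and the intervals of Hlf and Meis1 are the narrowest.

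Mycn, a paralogue of Myc that is expressed in stem cells, had 3 probe sets. On the brightest, 1417155_at, signals were 1741, 1687 and 1607 in RUNX1(41-214), 1880, 2733 and 2653 in Runx1KO and 2417, 1954 and 1439 in control cells. The RUNX1(41-214) arrays lay within the control range and below all Runx1KO arrays. The difference between RUNX1(41-214) and Runx1KO, -0.49 ± 0.20, had an unadjusted p of 0.0271 in limma and an adjusted p of 0.374. The Runx1KO difference from control was 0.31 ± 0.20 (limma adjusted p = 0.828) and that of RUNX1(41-214) was -0.18 ± 0.20 (limma adjusted p = 0.745).

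The probe set 1425923_at, also annotated to Mycn, had signals of 2140, 2046 and 1825 in RUNX1(41-214) cells. In Runx1KO cells it was at 1.56, 1.47 and 3.81, and in control cells at 1, 1 and 1.09, near the lowest signal of any probe set on these arrays (0.53). The 3 RUNX1(41-214) arrays lay far above the other 6. No detection calls were used, and signals this low give only a bound, so no fold is given. On the log2(signal + 16) scale the difference was 6.89 against control and 6.78 against Runx1KO (limma adjusted p = 7.14e-09 and 8.43e-09 over 22626 probe sets), sizes that the offset sets. The difference from control was 5.33 with an offset of 50 and 9.94 with an offset of 1, and it passed in all 18 alternative settings.

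The third Mycn probe set, 1425922_a_at, was dim, at 52.0, 74.8 and 91.7 in RUNX1(41-214), 86.3, 74.7 and 80.4 in Runx1KO and 74.3, 71.0 and 66.8 in control cells. It passed in no comparison (0.13 ± 0.20 for RUNX1(41-214) against control, limma adjusted p = 0.844). Of all probe sets 1 was below 10 on all 6 Runx1KO and control arrays and above 500 on all 3 RUNX1(41-214) arrays, and it was the Mycn probe set 1425923_at. These limits were chosen after its values were seen. The sequences of the probes were not used here, and which RNA they match was not tested. The RUNX1(41-214) arrays differ from the other 6 in the fragment, vector, transplantation and sampling time at once. The labels also give them no floxed alleles and no poly IC, which may be further differences. These cannot be told apart as the source of the signal.

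**Figure D4:**
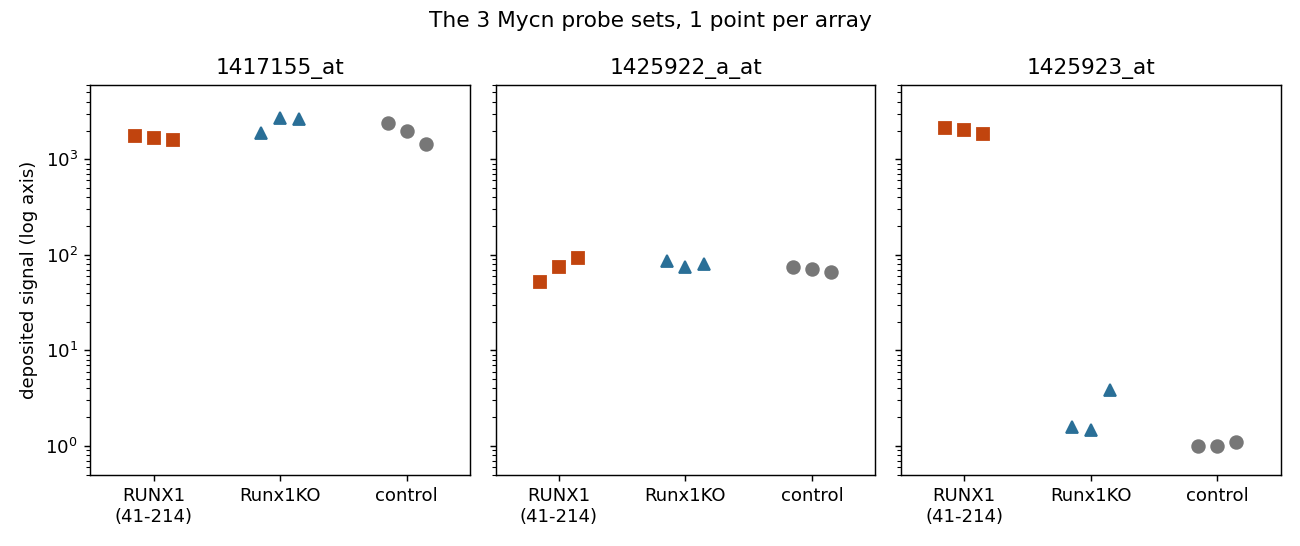
Deposited signal (log axis) of the 3 Mycn probe sets on each array. Probe set 1425923_at is at 1825 to 2140 on the RUNX1(41-214) arrays and at 1 to 3.81 on the other 6, while the other probe sets show no such step.

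Hlf, a bZIP factor marking primitive stem cells, was bright and even. Its signals were 3376, 3036 and 2767 in RUNX1(41-214), 3255, 3095 and 3237 in Runx1KO and 3141, 2661 and 2555 in control cells. The groups overlapped. The interval of the Runx1KO difference from control was -0.06 to 0.42 on the log2 scale, and that of RUNX1(41-214) was -0.14 to 0.34, which leaves out any change as large as that of Mllt3 in Runx1KO. Its other probe set was at 0.22 and 0.04 in the same comparisons.

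Meis1, the homeodomain partner of Hox and Pbx factors, had signals of 3763, 3566 and 3254 in RUNX1(41-214), 3337, 3627 and 3886 in Runx1KO and 3452, 2720 and 2681 in control cells. Control replicate 1 lay within the range of the other groups. The log2 difference was 0.28 in Runx1KO (95% interval 0.02 to 0.55, unadjusted p = 0.0380 in limma, adjusted p = 0.646) and 0.22 in RUNX1(41-214) (-0.04 to 0.48, limma adjusted p = 0.437). Meis1 and Hlf varied together over the 9 arrays (Pearson r = 0.884, points that share array and group).

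Mecom, the zinc finger factor also called Evi1, was dim, and only 36.2% of probe sets were dimmer than its brighter one. That probe set had signals of 35.8, 46.3 and 63.9 in RUNX1(41-214), 39.7, 50.1 and 34.4 in Runx1KO and 52.0, 52.9 and 44.6 in control cells. Its other probe set lay between 18.9 and 38.6 on all arrays. The 2 probe sets took opposite signs in all 3 comparisons, and all their adjusted p were 0.608 or above. No change in Mecom RNA was detectable at this brightness.

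Gfi1, the stem cell and granulocyte repressor, had signals of 1042, 969 and 1117 in RUNX1(41-214), 1164, 1066 and 1368 in Runx1KO and 1420, 694 and 1611 in control cells. The control arrays spanned a wider range than both other groups. The log2 difference was 0.02 ± 0.28 in Runx1KO and -0.16 ± 0.28 in RUNX1(41-214) (limma adjusted p = 0.996 and 0.862). Without control replicate 2, the low array and one of high Gapdh ratio, Gfi1 was at -0.36 in Runx1KO and -0.54 in RUNX1(41-214), and neither passed.

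Myb, which progenitors need for division, was the brightest on probe set 1421317_x_at, with signals of 4509, 4514 and 4622 in RUNX1(41-214), 4493, 4878 and 5213 in Runx1KO and 5341, 3454 and 4612 in control cells. The difference from control was 0.10 ± 0.14 in Runx1KO and -0.01 ± 0.14 in RUNX1(41-214) (limma adjusted p = 0.946 and 0.982). Its dimmest probe set, 1422734_a_at, ranged from 323 to 1936 within the control group. Control replicate 2 was the lowest of the 9 arrays on all 3 Myb probe sets. Gfi1 and Myb varied together over the 9 arrays (Pearson r = 0.885), with that array the lowest for both.

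The partners, relatives and reported targets of these regulators were described from lists chosen with earlier results of these data known. Over all genes 0.347% were called in Runx1KO against control, 4.28% in RUNX1(41-214) against control and 1.36% in RUNX1(41-214) against Runx1KO, and 7.22%, 15.5% and 10.6% had an unadjusted p under 0.05. Of 20 measured Myc target genes 0 rose in either comparison with control by limma (2 and 3 of the 20 had an unadjusted p under 0.05 in either direction, in Runx1KO and RUNX1(41-214)), and 17 lay below control in Runx1KO (median -0.17, beside -0.004 over all genes) and 16 in RUNX1(41-214) (median -0.10, beside 0.02). The 1 that fell was the transferrin receptor Tfrc in RUNX1(41-214), by 0.75 ± 0.18 (limma adjusted p = 0.0414). Of 17 Myc partners and antagonists 1 rose in RUNX1(41-214), Mlxip, a glucose-sensing relative of the Max network (0.73 ± 0.17, limma adjusted p = 0.0348). Of 14 partners of Mllt3, among them the elongation factors Ell and Cdk9 and the methyltransferase Kmt2a, 0 passed in any comparison by limma, and 1 had an unadjusted p under 0.05, in Runx1KO against control. The median was 0.14 in Runx1KO against control and 0.003 in RUNX1(41-214) against control.

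Among 7 Meis and Pbx family genes Pbx4 rose in RUNX1(41-214), by 1.37 ± 0.22 against control (limma adjusted p = 0.00442) and 1.46 ± 0.22 against Runx1KO (adjusted p = 0.00722). It was dim, at a log2 level of 6.66 in RUNX1(41-214), 5.20 in Runx1KO and 5.29 in control cells. Of 3 bZIP relatives of Hlf, Nfil3, a factor of lymphoid and natural killer cells, fell in RUNX1(41-214) by 1.85 ± 0.32 (limma adjusted p = 0.00667) and was at -1.41 ± 0.32 in Runx1KO (adjusted p = 0.112). The 9 measured relatives and corepressors of Gfi1 held 0 calls in all 3 comparisons by limma, as did the 6 of Mecom and Prdm16 and the 5 relatives and coactivators of Myb. In each comparison with control 1 of the 9 on the Gfi1 list, and none on the other lists, had an unadjusted p under 0.05, and between RUNX1(41-214) and Runx1KO none on these lists had one.

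Of 39 other stem cell transcription regulators 1 rose in Runx1KO against control: Hmga2, a chromatin protein of fetal stem cells, by 2.26 ± 0.26 (limma adjusted p = 0.00314), with 30 of 39 above control. An unadjusted p under 0.05 was reached by 5 of 39 in Runx1KO against control, by 13 in RUNX1(41-214) against control and by 8 between RUNX1(41-214) and Runx1KO. The fragment's comparison with control had 2 of 39 that rose, where 1.73% of all genes did, and 3 that fell, where 2.56% did. Hmga2 (2.14 ± 0.26) and the cytokine signal factor Stat5a (0.91 ± 0.17) were higher. The vitamin D receptor Vdr (-1.36 ± 0.24), the immediate early factor Egr1 (-1.24 ± 0.21) and the zinc finger repressor Zbtb16 (-1.15 ± 0.29) were lower, with limma adjusted p up to 0.0495. Zbtb16 lies outside the naming rule and was added after its values were seen. Egr1 was also lower in RUNX1(41-214) than in Runx1KO (-1.19 ± 0.21, limma adjusted p = 0.0176).

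Of 17 measured genes reported as targets of these regulators 0 passed in Runx1KO against control by limma, with 4 at an unadjusted p under 0.05. That count was 9 of 17 in RUNX1(41-214) against control and 5 of 17 against Runx1KO. In RUNX1(41-214) cells the integrin Itga6 (0.72 ± 0.12) and the stem cell factor receptor Kit (0.57 ± 0.14) rose relative to control and the survival gene Bcl2 fell by 1.46 ± 0.35 (limma adjusted p = 0.00667, 0.0415 and 0.0367). Kit is also a gene of the sorting gate, and its levels are given above with the genes listed for the sorted cell type.

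**Figure D5:**
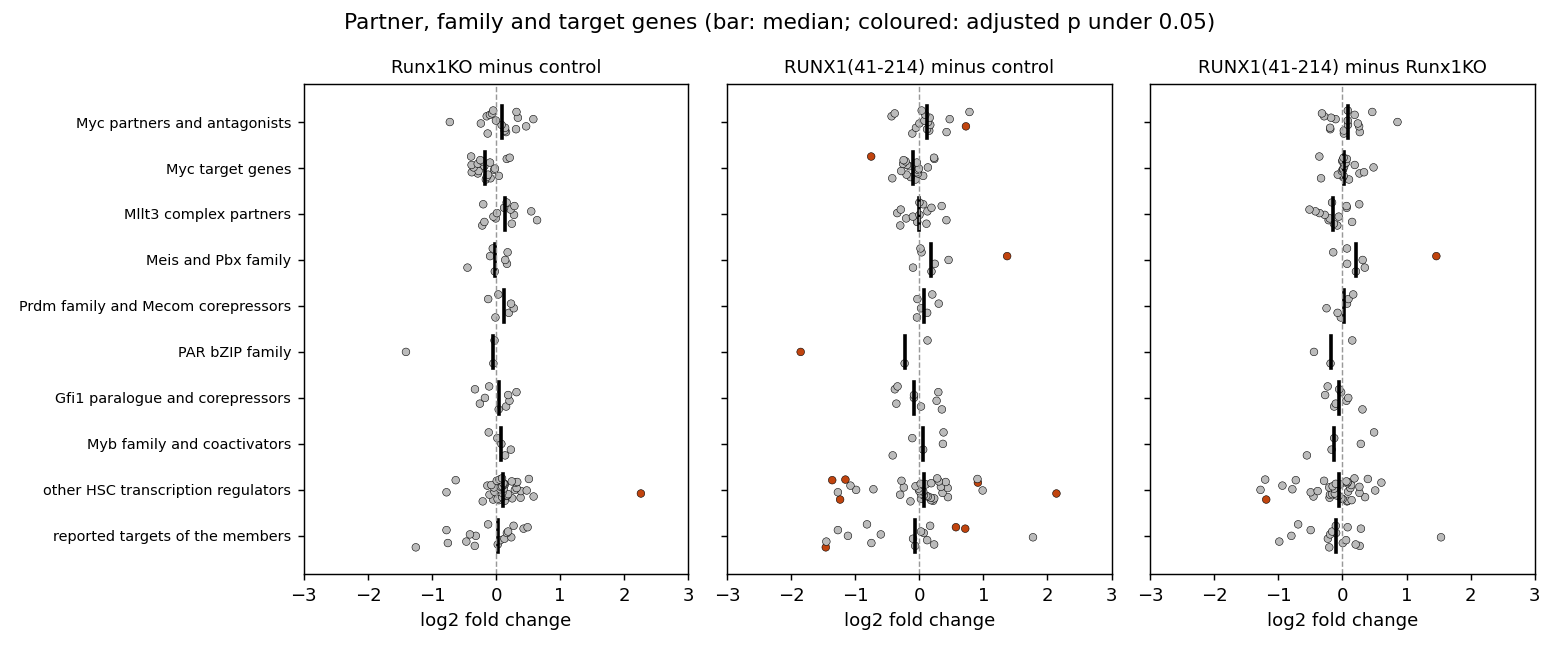
log2 fold changes of the measured genes of each list (1 point per gene) in the 3 comparisons, with the list median (bar); coloured points have an adjusted p under 0.05 over all genes. The point at 2.26 in Runx1KO minus control is Hmga2, and that at -1.85 in RUNX1(41-214) minus control is Nfil3.

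Genes whose level over the 9 arrays was most like that of the called regulators were sought among the 6195 other genes above the median level. For Mllt3 these were the membrane protein gene Myof (Pearson r = 0.962), the GTPase gene Gimap3 (0.945) and the corepressor gene Cbfa2t3 (0.925). For Myc they were the phosphatase subunit Ppp2cb (0.971), vimentin, Vim (0.963), and the immediate early gene Ier2 (0.944). These genes were chosen for their likeness over the same 9 arrays, which include the differences between the groups, so their own group differences are not tested.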

How the data were processed

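Per the labels, RNA was labelled by an Affymetrix protocol that amplifies it before hybridisation. Each array's deposited column holds linear intensity, 1 signal for each probe set, from 0.53 to 20215. How the authors summarised and scaled it is not given in the labels. The 64 control probe sets were set aside, values were converted to log2(signal + 16) and quantile normalized, since array medians spanned 0.211. Genes were named from the platform's probe table (20380 probe sets with 1 symbol, 691 with several, 1555 with none), and each of 12393 genes was represented by its probe set of highest mean. Differences came from limma 3.58.1 (R 4.3.3) on the 9 arrays together, with group means as coefficients, lmFit, trended eBayes and 6 residual degrees of freedom, also over all 22626 probe sets. P-values were adjusted by Benjamini-Hochberg, threshold 0.05. The number of arrays limits precision (median SE 0.203). The fit was tested on simulated data. Alternatives changed the normalization, offset, dim-gene filter, probe set choice, arrays, weights, variance trend and block. Named were the 9 regulators, up to 4 called genes per related list and the 3 genes most like each called regulator. The regulators and lists were chosen with earlier results of these data known.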

Additional observations from a re-analysis of the deposited data

Results flagged for a closer look

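The effect on Mllt3 against control differed between the 2 altered groups in the comparison of one with the other: RUNX1(41-214) cells were at -1.08 on the log2 scale relative to Runx1KO cells (limma adjusted p = 0.0454), lower on 3 of 3 arrays than any Runx1KO array. The effect on the Mycn probe set 1425923_at differed in the same way, higher on 3 of 3 RUNX1(41-214) arrays than on any Runx1KO array (6.78 on the log2(signal + 16) scale, limma adjusted p = 8.43e-09). The Runx1KO arrays were near the bottom of the scale, so that the offset sets this size (5.29 to 9.31 over the alternatives) and it is no fold. The Mllt3 call was lost in 13 of 20 alternative settings. Adjusted over all probe sets, that Mllt3 difference did not pass (limma adjusted p = 0.0608).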

How the results depend on the processing

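Of 477 alternative values for single regulators, 423 kept their sign and their side of the threshold, 26 lost a call and 28 changed sign; the cause was not tested. Leaving out single arrays, the genes called were 14 to 50 for Runx1KO against control, 297 to 612 for RUNX1(41-214) against control and 74 to 207 for RUNX1(41-214) against Runx1KO, and the regulators called 0 to 1 in each, their probe sets 0 to 0, 1 to 2 and 1 to 1, and the regulators in the F test 0 to 2. For Runx1KO against control (43 genes, 1 regulator, 0 of its probe sets), the 6-array fit called 9 genes. It called 0 regulators, as did array weights, the replicate block and the omission of both arrays of high Gapdh ratio, and 1 probe set passed with median centring, an offset of 50 or dim genes left out. For RUNX1(41-214) against control (531, 1 and 2), 262 genes passed with dim genes left out, 2 regulators with the mean of probe sets and 0 in the 6-array fit, and 1 probe set with dim genes left out, in the 6-array fit or without a variance trend. For RUNX1(41-214) against Runx1KO (168, 1 and 1), 77 genes passed with dim genes left out and 371 with array weights. There 2 regulators passed with the mean of probe sets and 0 with median centring, an offset of 50, the 6-array fit, array weights, the replicate block or both high-ratio arrays omitted. Of probe sets 2 passed without normalization and 0 with dim genes left out, which removes Mycn 1425923_at; Mecom likewise has no value there. In the F test 2 regulators passed with median centring, the mean of probe sets, array weights or the replicate block.

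Sign changes in Runx1KO against control were those of Gfi1 (-0.14 with array weights, -0.51 without both high-ratio arrays, -0.36 to 0.28 over single omissions) and Myb (-0.014, -0.17, and -0.081 to 0.22). In RUNX1(41-214) against control they were Mecom (-0.047 without normalization, -0.085 with the mean of probe sets, -0.028 with array weights, -0.10 to 0.16), Gfi1 (-0.54 to 0.10), Mycn (2.28 with the mean of probe sets) and Myb (0.048 without normalization, 0.18 with median centring, 0.23 with the mean of probe sets, -0.20 to 0.11). In RUNX1(41-214) against Runx1KO they were Hlf (0.047 with median centring), Mecom (-0.079 with the mean of probe sets), Meis1 (0.078 with median centring, 0.022 with array weights, 0.030 without both high-ratio arrays, -0.14 to 0.030), Mycn (2.08 with the mean of probe sets) and Myb (0.020 with median centring). Median centring moved the median of all genes to 0.117 and 0.108 in the RUNX1(41-214) comparisons with control and Runx1KO. Whether replicate numbers pair the Runx1KO and control arrays was not settled. The correlation of their same-numbered deviations was 0.027 to 0.418, and 4 of 6 arrays correlated best with their own number. For RUNX1(41-214) it was -0.149 to 0.205 with control (2 of 6 arrays) and -0.174 to -0.0021 with Runx1KO (0 of 6). The block called 48, 539 and 171 genes and kept the Myc call (adjusted p = 0.0187). The Mycn probe set was added to the alternatives after its values were seen.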
